A study of Rattus rattus with 8 samples.

Results

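The 10 genes described here are classical identity genes of endothelial cells, the cells that line blood vessels and the chambers of the heart: Cdh5, Esam, Cldn5, Ptprb, Emcn, Robo4, Eng, Vwf, Egfl7 and Erg. They were found by symbol in a table of 30957 rat genes, and all 10 were present and were tested. The libraries were messenger RNA of cultures of neonatal rat cardiomyocytes, the muscle cells of the heart, from SD rats aged 1 to 3 days. Fibroblasts had been reduced by differential adherence, and the cells had been cultured for 24 h with 0.2 mM AraC, which blocks DNA synthesis, and with insulin, transferrin and selenium. They were then starved of serum and held at 1% oxygen for 48 h, in both groups alike, so no normoxic or unsorted sample enters any comparison. Cells were stained with the DNA dye Hoechst at 2 µg/mL and sorted by DNA content into diploid (2n) and tetraploid (4n) fractions, with 4 libraries of each, described as independent experiments. Tetraploid nuclei, binucleated cells, cells in G2 or M phase and adhering pairs of 2n cells all read as 4n by this stain, and the labels give no further gate.

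Endothelial cells hold together through junctions built on VE-cadherin (Cdh5), and form a barrier together with claudin-5 (Cldn5) and the adhesion molecule Esam. The transcription factor Erg keeps many endothelial genes active, and the cells store von Willebrand factor (Vwf), which tethers platelets. Cultures of newborn hearts usually hold some endothelial cells and fibroblasts beside the muscle cells. In bulk RNA, a larger share of cells of a type cannot be told apart from more RNA per cell.

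Total counts ran from 14783521 to 21033772 per library. The share of counts on mitochondrial genes was 2.87% to 3.82% in the 2n libraries and 3.71% in 4n replicate 1, but 24.1% to 25.9% in the other 4n libraries. The library labelled 4n replicate 4 stands apart for the endothelial identity genes: it was the highest of all 8 libraries for 9 of the 10, against 10.4% of all 12983 genes tested. The fold changes of these 9 are therefore given with and without it. Correlations between the members are also given without both replicate 4 libraries. Correlations with markers of other cell types, and ranks among all genes, are over all 8 libraries. The summed level of 11 cardiomyocyte markers was 529 to 1086 CPM in 2n (CPM is the read count scaled to the size of the library) and 4621 to 35807 CPM in 4n, and that of 9 fibroblast markers was 44288 to 57617 CPM in 2n and 29473 to 51533 CPM in 4n. In these sums, which are not scaled per length, fibroblast markers outweighed cardiomyocyte markers in every library but 4n replicate 3, although the cultures are labelled as cardiomyocytes.

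Of the members, 9 had more RNA in 4n than in 2n cells on average, and Eng did not. The difference was largest for Cldn5, Robo4, Cdh5, Emcn, Vwf and Erg, with fitted log2 fold changes of 4n over 2n between 2.55 and 3.91, and smaller for Ptprb, Esam and Egfl7. The median over the 10 was 2.69, beside -0.01 over all genes tested. No member passed an adjusted p of 0.05 in edgeR's quasi-likelihood test of the groups, in which 2.67% of all genes were called higher and 0.0077% lower in 4n, while 8 members had an unadjusted p under 0.05, all higher in 4n, as had 12.6% of genes. With the replicate number as a block, which compares the 4n and 2n libraries of one number, 6 members passed, all higher in 4n, beside 4.27% of all genes higher and 0.608% lower. Those 6 are Cdh5, Emcn, Vwf, Cldn5, Robo4 and Erg. DESeq2 gave no p, unadjusted or adjusted, to 5 members (Cdh5, Emcn, Cldn5, Robo4 and Erg), so it did not decide on them. Of the rest it called 1, Vwf, with 6.62% of all genes called higher. Without the pair of replicate 2 or that of replicate 4, the block fit called 0 members. At an unadjusted p under 0.05 (edgeR), 9 and 7 members were higher, and 0 and 1 lower. The same fits called 0 of all genes, higher or lower, with 1962 and 1404 higher at an unadjusted p under 0.05. Leaving out pair 1 or 3 left 7 or 5 members called, beside 1254 or 558 of all genes called higher. Over all genes, too, the edgeR test of the groups made no higher call without any 1 of the 2n libraries or without 4n replicate 4 (1304 to 1478 genes higher at an unadjusted p under 0.05). Without 4n replicate 4 the median over the members was 1.49, and without both replicate 4 libraries it was 2.32 (edgeR, 0 called and 6 higher at an unadjusted p under 0.05).

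**Figure D1:**
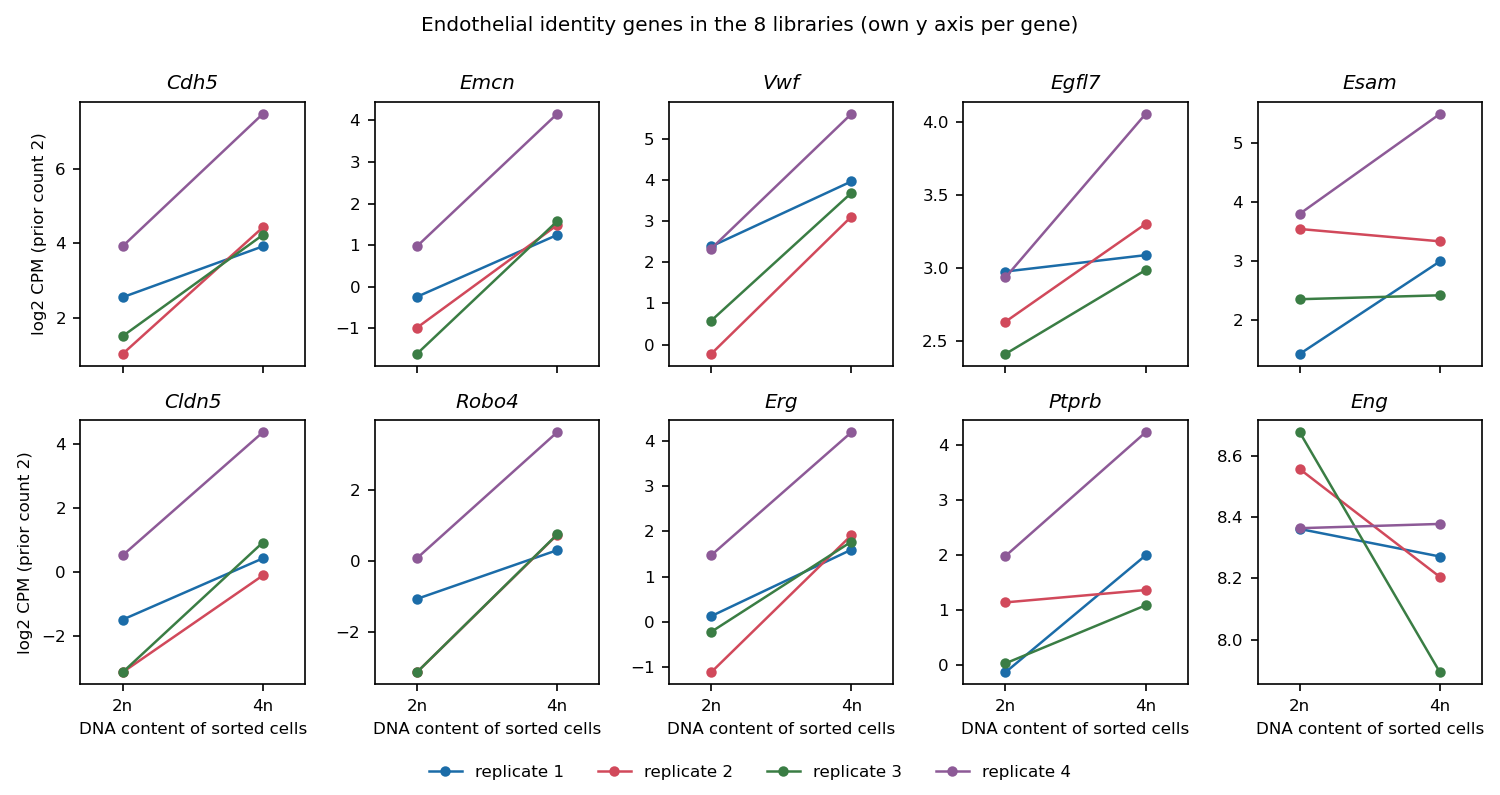
Level of each endothelial identity gene as log2 CPM (prior count of 2), each gene with its own vertical axis, in the 2n and 4n libraries. Each point is a library and each line joins the libraries of one replicate number, and 4n replicate 4 is the highest point for every gene but Eng, whose axis covers only 238 to 409 CPM.

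Cdh5 encodes VE-cadherin, the adhesion molecule of endothelial adherens junctions. In replicates 1 to 4 it stood at 5.79, 1.95, 2.76 and 15.0 CPM in 2n and at 15.0, 21.4, 18.6 and 176 CPM in 4n. The groups touched: 2n replicate 4 was level with 4n replicate 1, and 4n replicate 4 was 8.22 times the next 4n library. The means were 6.39 ± 6.01 CPM in 2n and 57.8 ± 78.9 CPM in 4n (SD, n = 4), a spread in 4n larger than the mean itself. The fitted log2 fold change was 3.17 ± 0.98 (SE; edgeR adjusted p = 0.141), and with the block 2.81 ± 0.41 (edgeR adjusted p = 0.0358). Within replicates 1 to 4 the log2 difference was 1.36, 3.38, 2.70 and 3.54, so each 4n library was above its 2n partner. Without 4n replicate 4 the fitted value was 1.52, and without both replicate 4 libraries it was 2.40. The gene lies on chromosome 19, from 1023683 to 1074365, in the rat build Rnor_6.0, as do the positions given below.

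Cldn5 encodes claudin-5, the sealing protein of endothelial tight junctions, and had the largest fitted fold of the 10. It was counted at 0.24, 0, 0 and 1.32 CPM in 2n and at 1.24, 0.82, 1.79 and 20.5 CPM in 4n, so 2 of the 2n libraries held no read of it. Against a floor of 3 counts per library, 4n was at least 6.28-fold higher in replicate 2 and at least 11.2-fold higher in replicate 3. The groups overlapped, since 2n replicate 4 was above 4n replicates 1 and 2. The log2 fold change was 3.91 ± 1.42 (edgeR adjusted p = 0.206), and 3.98 ± 0.54 with the block (edgeR adjusted p = 0.0205), but without 4n replicate 4 it was 1.67, and without both replicate 4 libraries 4.03. Fitted values of genes with libraries at 0 depend on the prior count. Cldn5 (chromosome 11, 86356294 to 86357718) overlaps Cdc45, a replication factor that stood at 13.5 CPM in 2n and 15.4 CPM in 4n. The sources used here do not state the strand setting of the counting, and reads of these 2 genes may not have been told apart.

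Esam, an adhesion molecule of endothelial cells and platelets at tight junctions, varied among the replicates of both groups. It stood at 2.56, 11.5, 4.98 and 13.8 CPM in 2n and 7.84, 9.96, 5.22 and 45.1 CPM in 4n. The 2n libraries of replicates 2 and 4 were above all 4n libraries but replicate 4, and 4n was lower than 2n in replicate 2. The log2 fold change was 1.04 ± 0.74 (edgeR adjusted p = 0.505, and 0.226 with the block), and it changed sign to -0.11 without 4n replicate 4. Without both replicate 4 libraries it was 0.26, and 0.44 with the block without replicate 4. Ptprb encodes VE-PTP, the phosphatase that acts on VE-cadherin and on the receptor Tek. Its levels were 0.79, 2.08, 0.90 and 3.83 CPM in 2n and 3.87, 2.45, 2.00 and 18.8 CPM in 4n. In every replicate 4n was the higher, though by a log2 difference of only 0.23 in replicate 2, and the groups overlapped. The fitted value was 1.81 ± 0.80 (edgeR adjusted p = 0.287, and 0.0604 with the block), and 0.54 without 4n replicate 4. Esam lies on chromosome 8 (39997875 to 40008809) and Ptprb on chromosome 7 (59326518 to 59425718).

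Emcn encodes endomucin, a sialomucin of the endothelial surface that is abundant in capillaries and veins. It stood at 0.73, 0.39, 0.21 and 1.85 CPM in 2n and at 2.26, 2.68, 2.86 and 17.7 CPM in 4n. Every 4n library was above every 2n library, although 2n replicate 4 came near to 4n replicate 1. The log2 fold change was 2.98 ± 0.88 (edgeR adjusted p = 0.125), and 2.84 ± 0.35 with the block (edgeR adjusted p = 0.0156). Without 4n replicate 4 it was 1.69. Robo4, a roundabout receptor of endothelial cells that steadies the vessel wall, was counted at 0.37, 0, 0 and 0.95 CPM in 2n and 1.13, 1.56, 1.57 and 12.3 CPM in 4n. These groups did not overlap either, and 4n was at least 12.0-fold and 9.90-fold higher in replicates 2 and 3, where 2n had no read. Its log2 fold change was 3.62 ± 1.21 (edgeR adjusted p = 0.172), and 3.69 ± 0.68 with the block (edgeR adjusted p = 0.0380). Without 4n replicate 4 it was 2.09. Emcn lies on chromosome 2 (242634399 to 242714182) and Robo4 on chromosome 8 (39878955 to 39890942), 106.9 kb from Esam with 2 genes between them. These neighbours on the chromosome differed in pattern, Esam being above 4n replicates 1 to 3 in 2 of the 2n libraries and Robo4 in none.

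Eng encodes endoglin, a co-receptor for TGF-beta and BMP ligands that endothelial cells share with stromal cells such as fibroblasts. It stood at 329, 376, 409 and 329 CPM in 2n and 309, 295, 238 and 332 CPM in 4n. The groups overlapped and 4n was lower in 3 of the 4 replicates, with the lowest level in 4n replicate 3. The log2 fold change was -0.30 ± 0.14 (edgeR adjusted p = 0.307, and 0.188 with the block). Scaled per length, as the deposited FPKM values are, it was by far the most abundant member, at 100.3 ± 10.1 FPKM in 2n and 69.8 ± 16.0 in 4n, and the next member in 2n, Egfl7, at 4.96 ± 0.95 FPKM (SD, n = 4). As a ratio of CPM, which is not scaled per length, Cdh5 was 0.519% to 4.57% of Eng in 2n and 4.87% to 52.9% in 4n. Eng lies on chromosome 3 (11679530 to 11717485).

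Vwf and Egfl7 are secreted proteins of endothelial cells, the first a multimeric clotting protein stored in granules and the second an angiogenic factor whose gene carries miR-126 in an intron. Vwf stood at 5.12, 0.74, 1.38 and 4.92 CPM in 2n and 15.6, 8.55, 12.8 and 48.9 CPM in 4n, with no overlap. It had the smallest adjusted p of the members in the test of the groups, with a log2 fold change of 2.83 ± 0.73 (edgeR adjusted p = 0.0817), and 2.85 ± 0.34 with the block (edgeR adjusted p = 0.0204). It depended least on 4n replicate 4 among the 6 genes of large fold, at 2.03 without that library. Egfl7 varied least of the 9, at 7.74, 6.07, 5.20 and 7.52 CPM in 2n and 8.38, 9.74, 7.80 and 16.5 CPM in 4n. These groups too did not overlap, but 2n replicate 1 was within 1 CPM of 4n replicates 1 and 3, and the log2 fold change was 0.68 ± 0.27 (edgeR adjusted p = 0.239, and 0.0818 with the block), or 0.38 without 4n replicate 4. Vwf lies on chromosome 4 (158088505 to 158219523) and Egfl7 on chromosome 3 (4034921 to 4043936).

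Erg, the ETS transcription factor, lies on chromosome 11 (35646116 to 35749594). It stood at 0.98, 0.35, 0.74 and 2.65 CPM in 2n and at 2.90, 3.64, 3.29 and 18.0 CPM in 4n. Every 4n library was above every 2n library, with 2n replicate 4 just below 4n replicate 1. The log2 fold change was 2.55 ± 0.79 (edgeR adjusted p = 0.140), and 2.46 ± 0.31 with the block (edgeR adjusted p = 0.0167). Without 4n replicate 4 it was 1.47.

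Seen by replicate, 8 members were higher in 4n in 4 of 4, where 20.2% of all genes were, and Esam was in 3 and Eng in 1. Their median log2 difference was 1.48, 2.74, 2.35 and 2.95 in replicates 1 to 4. The sum of the 9 members other than Eng was 24.3, 23.1, 16.2 and 51.9 CPM in 2n and 58.2, 60.8, 56.0 and 374 CPM in 4n. This sum was close to level in 4n replicates 1 to 3, and the 4n library was 2.39, 2.63, 3.46 and 7.20 times the 2n library of its number. Replicate 4 was thus the highest in both groups, and 2n replicate 4 came close to the 4n libraries of the other replicates. No overlap between the groups was seen in 5 members (Emcn, Vwf, Egfl7, Robo4 and Erg), beside 7.68% of all genes that were higher in 4n without overlap. Scaling by total counts, as FPKM is, moved the median of all genes to -0.25 and that of the members to 2.44, and left 3 without overlap (Emcn, Robo4 and Vwf, beside 5.07% of genes) and 7 higher in all 4 replicates (beside 9.66%).

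**Figure D2:**
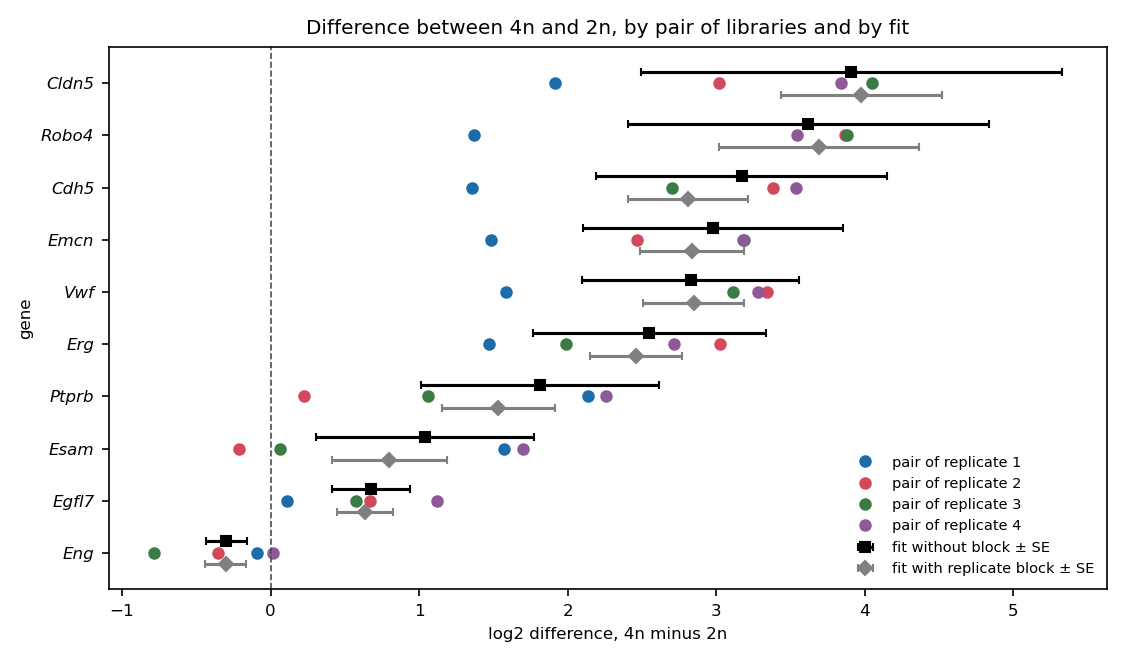
Difference in log2 CPM of 4n minus 2n for the 10 endothelial identity genes, as coloured points for the 4 pairs of libraries, black squares for the fit without the block and grey diamonds for the fit with it (bars, SE). The 6 genes of largest fold lie between 1.36 (Cdh5) and 1.91 (Cldn5) in replicate 1, below their other replicates, and Eng lies between -0.78 and 0.01.

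Across the 8 libraries Cdh5, Erg, Robo4, Emcn, Cldn5, Vwf and Egfl7 had r of at least 0.88 with each other, Ptprb had 0.70 to 0.87 with these, Esam had 0.43 to 0.69, and Eng was negative with all of them. This grouping was made after the values were seen. Pearson's r of log2 CPM was 0.99 between Cdh5 and Erg and between Cdh5 and Robo4, and its median over all 45 pairs of members was 0.87 (Spearman's rho 0.62). The 8 libraries are 4 numbered pairs in 2 groups, so these values are descriptions. At least 0.8 was reached by 28 of the 45 pairs of members and by 3.49% of all pairs of genes. Esam and Ptprb were most like each other (r = 0.93). Eng had r between -0.60 and 0.10 with the other 9. Cdh5 had the highest r with the mean of the other members (0.97), followed by Emcn (0.96), Cldn5 (0.96) and Erg (0.95). Ptprb had 0.91, Vwf 0.85, Esam 0.74 and Eng -0.42.

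The difference between the groups and 4n replicate 4 both enter these values. Taken as deviations from the group means, the median r of the 45 pairs was 0.79, and it was 0.67 over the 6 libraries without replicate 4. There Cdh5 with Erg and with Robo4 stayed at 0.99, while Cdh5 with Esam was 0.04 and with Ptprb 0.54, and Esam with Ptprb was 0.75. Eng had a median r of -0.83 with the others without replicate 4, but of 0.08 as deviations from the group means. Without the 2 libraries farthest from the median of Cdh5 (4n replicate 4 and 2n replicate 2) the median r of all pairs was 0.80.

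**Figure D3:**
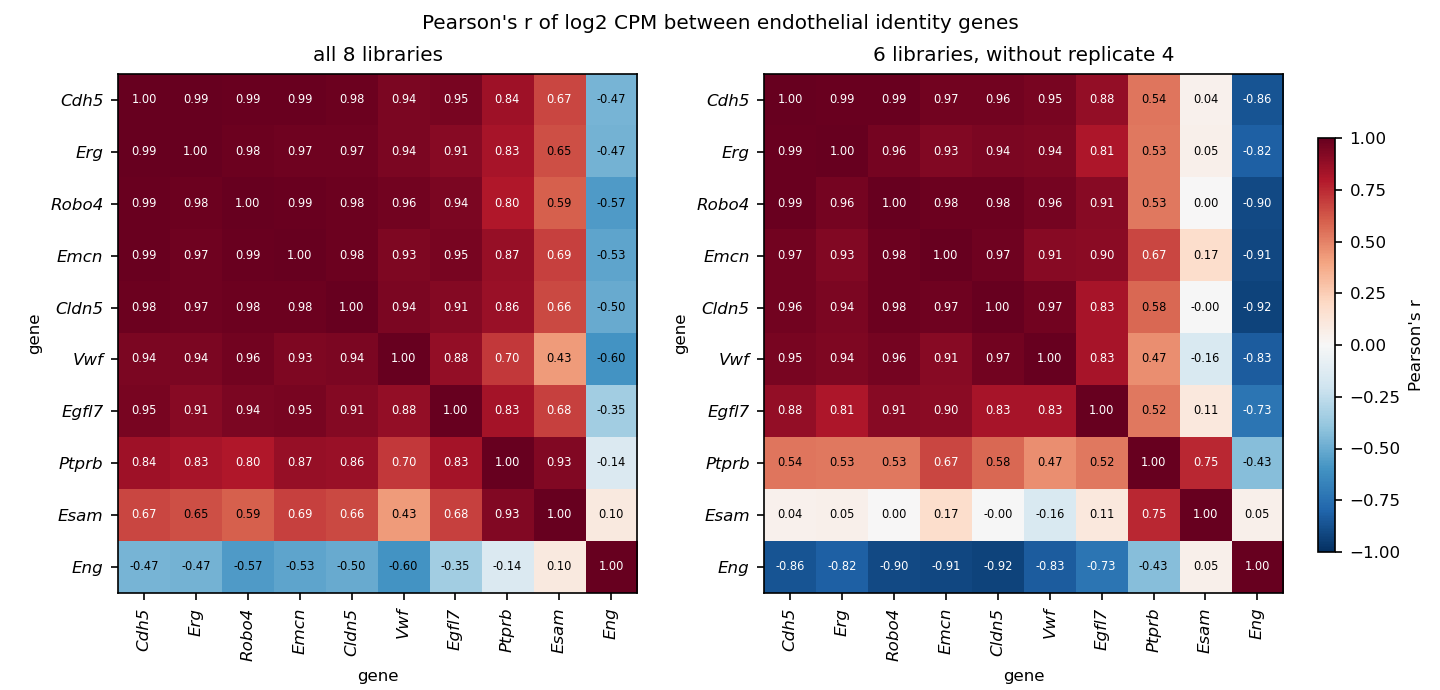
Pearson's r of log2 CPM between the endothelial identity genes, as a colour from -1 (blue) to 1 (red) with its value, over all 8 libraries on the left and over the 6 without replicate 4 on the right. Cdh5, Erg, Robo4, Emcn, Cldn5, Vwf and Egfl7 form a block of high values in both, while Esam drops to 0.04 with Cdh5 on the right.

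Markers of other cell types differed between the groups or between replicates as well. All 11 cardiomyocyte markers were called higher in 4n (edgeR, adjusted p under 0.05), with a median log2 fold change of 4.36, and the highest library for 10 of them was 4n replicate 3, not replicate 4. The sum of the endothelial members without Eng was 56.0 CPM in 4n replicate 3 and 374 CPM in 4n replicate 4, where the cardiomyocyte markers summed to 35807 and 14283 CPM. Across the 8 libraries Cdh5 had r of 0.76 with the cardiomyocyte sum and -0.77 with the fibroblast sum, and 0.32 and -0.61 as deviations from the group means. Eng had r of -0.82 with the cardiomyocyte sum and 0.63 with the fibroblast sum (-0.66 and 0.37 as deviations). Of the 8 fibroblast markers tested, none had a positive fold change and 2 fell with the block (edgeR), and the ninth, Col1a2, was listed at 0 in all libraries, although it is abundant in fibroblasts, so values of 0 in the deposited table need not mean absence. The 9 smooth muscle and pericyte markers summed to 5923 to 9747 CPM in 2n and 5622 to 10258 CPM in 4n, and none was called with or without the block (edgeR). Their sum was not highest in replicate 4, at 7305 CPM in 2n and 6735 CPM in 4n. Only 3 of the 9 were highest in 4n replicate 4. These pericyte genes, picked after their values were seen, were high in replicate 4 of both groups. Rgs5 stood at 43.2 CPM in 2n and 51.4 CPM in 4n there, and at 7.13 to 12.9 CPM in the other 6 libraries. Abcc9 stood at 264.5 and 268 CPM, against 44.1 to 85.4 CPM, and Kcnj8 at 16.2 and 18.7 CPM, against 2.68 to 6.52 CPM. The 4 glial markers summed to 3.92 to 5.68 CPM in 2n, and to 3.12 to 12.7 CPM in 4n, with the highest value in replicate 4. The part of these cell types in the endothelial values was not tested.

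Blood cells share some of these genes, Vwf and Esam with platelets among them. The 6 platelet and megakaryocyte markers summed to 1.33 to 1.89 CPM in 2n and 1.83 to 3.38 CPM in 4n, with the lowest 4n value in replicate 4, and Ppbp was at 0 in all 8 libraries. The 8 macrophage markers summed to 2.12 to 2.60 CPM in 2n and 1.57 to 8.06 CPM in 4n, with Cd163 at 0 throughout. The leukocyte gene Ptprc was at 0 in 2n replicates 1 to 3 and 4n replicate 3, and had 1 count in 2n replicate 4 and 16, 15 and 13 counts in 4n replicates 1, 2 and 4. As a ratio of CPM, Vwf was 32.7% to 88.4% of Cdh5 in 2n and 27.8% to 104% in 4n, in overlapping ranges.

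**Figure D4:**
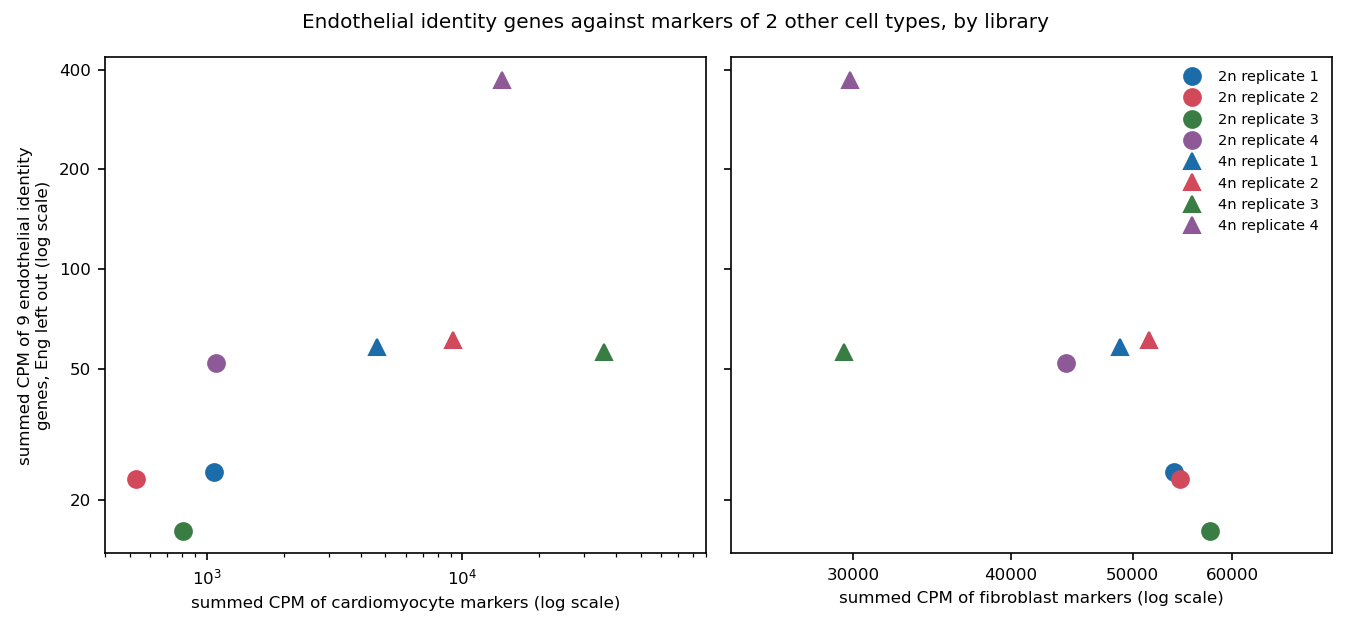
Summed CPM of the 9 endothelial identity genes other than Eng (log scale) against the summed CPM of cardiomyocyte markers (left, log scale) and fibroblast markers (right, log scale), with circles for 2n, triangles for 4n and a colour per replicate. 4n replicates 1 to 3 lie at 56.0 to 60.8 CPM over cardiomyocyte sums from 4621 to 35807 CPM, and 4n replicate 4 lies apart at 374 CPM.

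Other endothelial genes were taken from 4 lists of 64 symbols, of which 62 were in the table and 55 were tested. Their median log2 fold change was 0.65, well under that of the 10 identity genes. Positive values were found for 42 (76.4%), beside 48.2% of all genes tested. By the test of the groups 2 of the 55 rose in 4n (edgeR, adjusted p under 0.05). They were S1pr1, the receptor for sphingosine-1-phosphate, and Plvap, the protein of endothelial fenestrae and caveolae. No gene of the lists fell, but of all genes tested only 0.0077% were called lower, and 2.67% higher. The calls of S1pr1 and Plvap were lost without any 1 of the 2n libraries or without 4n replicate 4. That of S1pr1 was also lost without 4n replicate 3. With the block 16 rose and none fell (edgeR, adjusted p under 0.05), beside 4.27% of all genes higher and 0.608% lower. Without the pair of replicate 2 or that of replicate 4, 0 of the 55 were called with the block. At an unadjusted p under 0.05 (edgeR), 27 and 20 of them were higher, and 3 and 5 lower. The same fits called 0 of all genes tested, so this loss was not particular to these lists. Each call with the block named below was lost without either pair. The highest library was 4n replicate 4 for 36 of the 55 (65.5%). Without replicate 4 in either group the median was 0.22 and none passed (edgeR). There 20 had an unadjusted p under 0.05, all higher in 4n, beside 1082 of all genes higher.

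Among 15 receptors tested, 11 were positive and S1pr1 passed. S1pr1 stood at 10.4, 13.5, 5.04 and 11.8 CPM in 2n and at 19.8, 37.8, 76.6 and 83.1 CPM in 4n, without overlap. Its log2 fold change was 2.41 ± 0.47 (edgeR adjusted p = 0.0343), and it did not pass with the block (edgeR adjusted p = 0.0748). Unlike the identity genes, it was nearly as high in 4n replicate 3 as in replicate 4. The VEGF receptor Kdr, which passed with the block (3.28, edgeR adjusted p = 0.0303), stood at 5.69, 13.2, 28.3 and 72.2 CPM in 4n. The orphan receptor Tie1 also passed with the block (1.91, edgeR adjusted p = 0.0464), and Flt4, the lymphatic VEGF receptor, did not (2.63, edgeR adjusted p = 0.0715). Flt1, the other VEGF receptor, and Tek, the angiopoietin receptor, had fitted values of -0.20 ± 0.28 and -0.21 ± 0.18, which did not pass (edgeR adjusted p = 0.759 for Flt1 and 0.595 for Tek).

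Of 13 surface and junction genes, 9 were positive, Plvap passed, and 5 passed with the block. Plvap stood at 1.59, 1.35, 0.69 and 1.56 CPM in 2n and at 4.19, 5.28, 4.15 and 4.75 CPM in 4n. It varied little among the 4n libraries, with replicate 2 the highest, and its log2 fold change was 1.82 ± 0.30 (edgeR adjusted p = 0.0252, and 0.0227 with the block). The sialomucin Podxl (2.64), the selectin Sele (3.60) and Ecscr (1.63) passed with the block (edgeR adjusted p = 0.0299, 0.0364 and 0.0426). Of 15 transcription factors, 12 were positive, and Sox17 and Sox7 passed with the block (edgeR adjusted p = 0.0287 and 0.0435), with log2 fold changes of 3.44 and 2.25. Sox18 (3.08, edgeR adjusted p = 0.0565) and Prox1 (2.49, edgeR adjusted p = 0.0705) did not. Prox1, which also serves in heart muscle, was highest in 4n replicate 3 (16.7 CPM, against 7.31 in replicate 4), unlike Erg. Of 12 signalling and metabolism genes 10 were positive, and with the block Rasip1 (3.24), the nitric oxide synthase Nos3 (2.78), the lipid carrier Fabp4 (2.91) and Arhgef15 (2.14) passed (edgeR adjusted p = 0.0228, 0.0145, 0.0086 and 0.0285), with Angpt2 as the fifth.

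**Figure D5:**
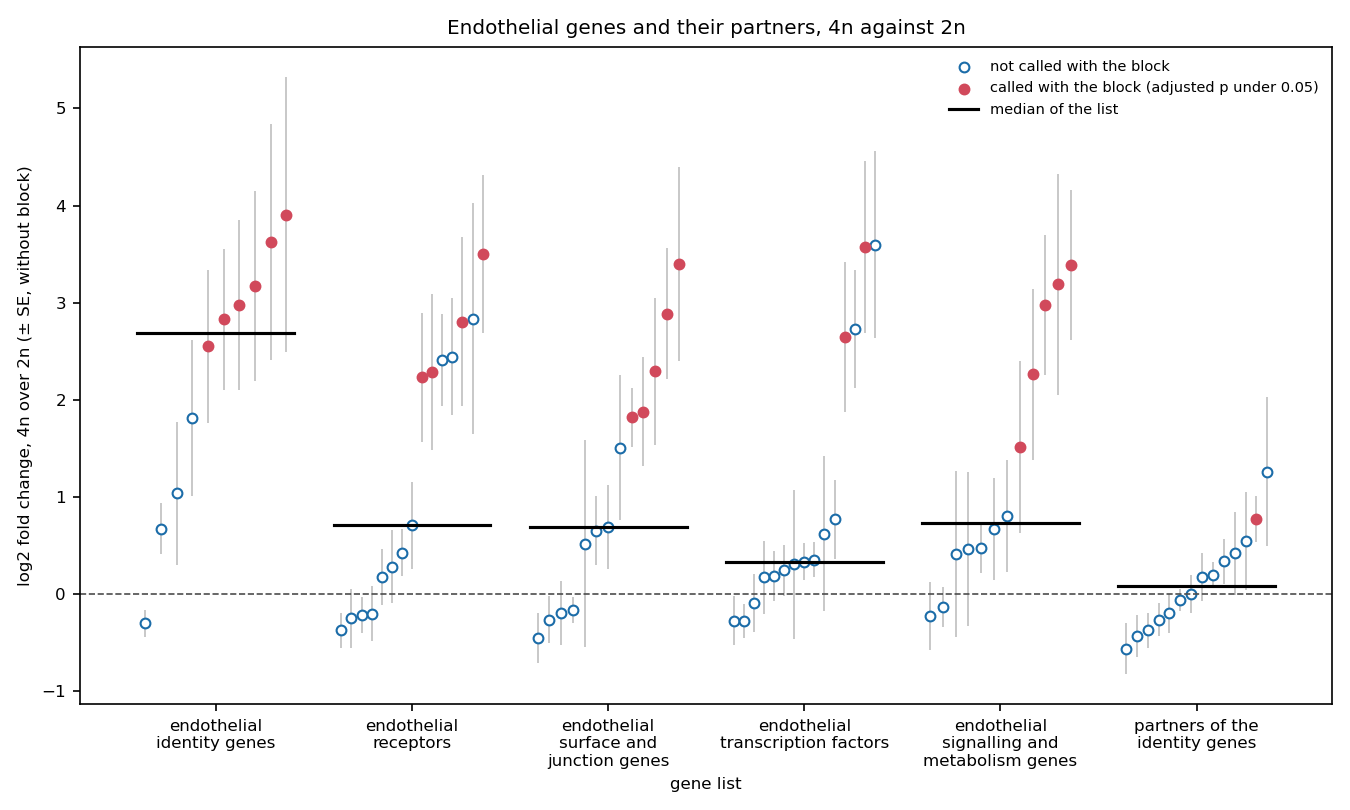
Fitted log2 fold change of 4n over 2n (without the block, with SE as grey lines) of every tested gene of 6 lists, one point per gene, filled where the gene was called with the block, and a black bar for the list's median. The 10 endothelial identity genes have a median of 2.69 and the lists of other endothelial genes have medians from 0.33 to 0.74.

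Genes that work with the members differed less. Of 14 tested partners, such as catenins that bind VE-cadherin, Slit ligands of Robo receptors and receptors for the ligands of endoglin, 7 were positive and the median was 0.09. Ctnna1, alpha-catenin, passed with the block (0.71, edgeR adjusted p = 0.0473), and was highest in 4n replicate 3 (920.3 CPM). Acvrl1, the receptor that signals with endoglin, and the ligands Slit3 and Slit2 were at -0.37, -0.56 and -0.43 in the test of the groups, and none passed (edgeR adjusted p = 0.326, 0.314 and 0.347). Beta-catenin (Ctnnb1) was at -0.06. Of the vessel subtypes, the 7 arterial genes had a median of 0.85, the 4 venous -0.10, the 5 lymphatic 2.45 and the 4 endocardial 0.10. Dll4, the arterial Notch ligand, passed with the block (3.17, edgeR adjusted p = 0.0279), as did Lyve1, a lymphatic and macrophage receptor (2.51, edgeR adjusted p = 0.0318). No other arterial gene tested passed. The connexins Gja4 (1.60) and Gja5 (1.14) and Sema3g (1.02) were positive (edgeR adjusted p = 0.0638, 0.0647 and 0.152). Hey1 (-0.08), Efnb2 (-0.15) and Unc5b (-0.21) were negative with the block (edgeR adjusted p = 0.927, 0.399 and 0.235). The venous genes Ephb4, Nr2f2, Selp and Vcam1 and the endocardial genes Gata4, Hapln1, Npr3 and Tmem108 had no call with or without the block, nor had the lymphatic podoplanin (Pdpn). In 2n, Gata4, Ephb4, Nr2f2 and Tmem108 averaged 217, 152, 38.9 and 15.8 CPM, above Cdh5 at 6.39 CPM. Vcam1, Selp and Hapln1 averaged 6.09, 3.90 and 1.14 CPM there, and Npr3 ran from 4.27 to 29.1 CPM. The part of other cell types in these levels was not tested.

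The genes most like the mean of the members across the libraries, among those of at least 5 CPM in a group, were Cxcr4, the chemokine receptor (r = 0.98), Rapgef5 (0.98), Cd93 (0.97), Tie1 (0.97), Il2rg (0.97), Lcp1 (0.97), Adgrl4 (0.97), the Notch ligand Dll4 (0.97), Map4k2 (0.96) and the growth factor Pdgfb (0.96). Each was highest in 4n replicate 4, for example Cxcr4 at 1.04, 0.69, 0.32 and 4.45 CPM in 2n and 3.81, 3.49, 4.58 and 59.2 CPM in 4n. Without both replicate 4 libraries their r ran from 0.84 (Pdgfb) to 0.95 (Cxcr4). Il2rg and Lcp1 are best known from leukocytes. The leukocyte gene Ptprc, whose counts are given above, reached at most 16 counts in a library. The part of leukocytes in these values was not tested. Of the 130 genes most like this mean (the top 1% of those tested), 21 were among the 55 other endothelial genes tested. The members themselves enter the mean, so each was instead compared with the mean of the other 9. Ranked in this way among all genes tested, Cdh5 was at 8, Emcn at 14, Cldn5 at 22, Erg at 31, Egfl7 at 37, Robo4 at 43, Ptprb at 59 and Vwf at 122, with Esam at 423 and Eng at 9970.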

How the data were processed

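Messenger RNA of 8 libraries was measured. The aligner was HISAT2 2.0.4 and the build Rnor_6.0, per the submitters' processing notes. That build is of Rattus norvegicus, while the labels say Rattus rattus. How reads were counted, and whether by strand, is not given in the sources used here. Per the file headers, the deposited table holds counts, which are whole numbers and not normalized, and FPKM values. The deposited FPKM values equal the counts over a constant per gene and over the library's total, mitochondrial genes included (within 1% for 9945 of 9945 abundant genes).

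For the test of counts, edgeR 4.0.16 (R 4.3.3) was used with filterByExpr (12983 genes), TMM scaling and a robust quasi-likelihood model with the group as factor. The tests were two-sided, with Benjamini and Hochberg's adjustment over all genes tested and a threshold of 0.05. The model was tested on simulated counts with known changes. The simulation gave every gene the same spread between libraries and no effect of the replicate. It therefore does not show how the model treats genes as variable as the members. CPM uses TMM-scaled library sizes, and log2 CPM a prior count of 2. Alternatives, such as DESeq2 1.42.0, limma-voom (limma 3.58.1), other scalings, the replicate block and left-out libraries, are in the closing section, and leaving out both replicate 4 libraries was chosen after seeing the data.

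Groups share replicate numbers in the titles, and the descriptions of libraries with one number begin with the same code. Deviations from the group means correlated at 0.43, 0.58, 0.27 and 0.65 within the numbers, and the best partner of every library was the one of its own number. The numbers were therefore taken to pair the samples, from the data and the descriptions and not from a stated protocol. P-values measure only the spread between these libraries.

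The members and lists were chosen with earlier results of these data known. Named genes are the 10 members, the 10 genes of at least 5 CPM most like their mean, up to 4 genes of smallest p per list, and defining markers of other cell types. Flt1, Tek, Angpt2, Ctnnb1, Cdc45, Ptprc, Rgs5, Abcc9, Kcnj8, Hey1, Efnb2 and Unc5b are named beside them and were chosen after their values were seen. Promoter motifs were not analysed here.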

Additional observations from a re-analysis of the deposited data

Results flagged for a closer look

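In groups of 4 libraries a value was marked where its gap to the nearest library, divided by the group's range, passed Dixon's 95% critical value. Of 20 groups tested (10 genes in 2n and in 4n), 7 were marked, all of them the value of 4n replicate 4. Chance marks about 1 in 20 groups where values are normally distributed. CPM was not checked for that, so the rate for these genes is not known. These 7 also share their libraries, so they are not independent. Cdh5 stood at 176 CPM there, with 21.4 CPM in the nearest 4n library. Emcn stood at 17.7 CPM (nearest 2.86), Cldn5 at 20.5 CPM (nearest 1.79) and Robo4 at 12.3 CPM (nearest 1.57). Erg stood at 18.0 CPM (nearest 3.64), Ptprb at 18.8 CPM (nearest 3.87) and Esam at 45.1 CPM (nearest 9.96). Vwf, Egfl7 and Eng were not marked in either group.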

How the results depend on the processing

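The members' fitted fold changes kept their sign under all alternatives run, apart from Esam. It ran from -0.11 (without 4n replicate 4) to 1.40 leaving out one library, and was 0.26 without replicate 4 in both groups. Calls depended on the tool and on single libraries. Members higher in 4n numbered 0 in the edgeR test, 1 with DESeq2 (Vwf, adjusted p = 0.000563, with no p given for Cdh5, Emcn, Cldn5, Robo4 and Erg), 6 with the replicate block, and 0 to 7 with the block and one replicate left out (5 without replicate 3). Other endothelial genes called higher numbered 2, with 1 without the low-count filter, 14 by DESeq2, 0 by limma-voom (18 at an unadjusted p under 0.05), 16 with the replicate block, 0 without replicate 4 in both groups, 0 to 13 leaving out one library, and 0 to 22 with the block and one replicate left out (11 without replicate 3). Over all genes, 347 were higher, with 860 by DESeq2, 0 by limma-voom (1456 unadjusted), 554 with the block, 0 without replicate 4 in both groups (1082 unadjusted), 0 to 870 leaving out one library, and 0 to 1254 with the block (558 without replicate 3). The 1 gene lower became 12 with total counts, 93 by DESeq2, 0 by limma-voom (691 unadjusted), 2 without mitochondrial genes, 79 with the block, 0 without replicate 4 in both groups (185 unadjusted), 0 to 90 leaving out one library, and 0 to 399 with the block (50 without replicate 3). The members' median correlation, 0.869, was 0.665 without replicate 4 in both groups and 0.673 to 0.913 leaving out one library. Of the genes of smallest p in the lists (up to 4 per list), 5 uncalled ones changed sign. Flt1, Tek, Angpt2, Ctnnb1, Hey1, Efnb2 and Unc5b, which the text also names, were not followed through the alternatives. Vcam1 was -0.23 with total counts, -0.090 by limma-voom, -0.41 to 0.59 leaving out one library and -0.033 with the block without replicate 3. Tmem108 was -0.18 with total counts, -0.0072 to 0.18 leaving out one library, -0.031 and -0.015 with the block without replicate 2 and 4, and -0.015 without replicate 4 in both groups. Leaving out one library, Selp ran from -0.62 to 2.74 and Npr3 from -0.74 to 0.35, with 0.062 for Npr3 with the block without replicate 2, and Gata4 was -0.084 with total counts. The cause was not tested. Depth limits Cldn5, Robo4, Emcn and Erg most, at 0 to 56 counts per 2n library.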
